A study of Rattus norvegicus with 46 samples.

Results

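Frontal lobe of 3 male F344 rats killed 96 hours after a single dose of 5 mg/kg chlorpyrifos (animals 1, 3 and 4) was compared with frontal lobe of 3 male F344 rats that received vehicle, 0 mg/kg (animals 1 to 3). All 6 belong to experiment C, the last of 3 separately run experiments, and all were 11 to 12 weeks old. The members were chosen by their titles and are 6 of the 46 arrays of the series, with 1 Affymetrix rat array per numbered animal. RNA came from a piece of about 30 mg, and 15 ug of total RNA was labelled. The question was which transcripts differ at this dose 4 days after exposure. The labels name neither the vehicle nor the route of dosing, and where nothing but an animal number separates samples, p-values measure the spread between these samples. Vehicle animal 1 carries the label "1st repeat", as do animals 2 and 3 at 10 mg/kg, and the labels do not say what was repeated. Animal 2 at 5 mg/kg was left out. Its column correlated with the 39 usable arrays at r between -0.0068 and -0.0017 over probe sets, against 0.961 to 0.974 among the 6 arrays compared, so its rows cannot be assigned to genes. The spread was estimated from 14 arrays of experiment C, which add 4 animals at 1 mg/kg and 4 at 10 mg/kg. Experiment B holds 1 more animal at 5 mg/kg and 4 vehicle animals, whose second description line names 1 mg/kg against their titles.

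Chlorpyrifos is an organophosphate insecticide. The liver and other tissues convert it to an oxon that inhibits acetylcholinesterase, the enzyme that ends cholinergic transmission, and that also binds other serine hydrolases such as butyrylcholinesterase. Excess acetylcholine acts on nicotinic and muscarinic receptors, which are abundant in cortex. The paraoxonase family includes an enzyme that hydrolyses the oxon. Acetylcholinesterase itself was not analysed here.

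Values are log2 normalised intensities, so a difference of 1 is a doubling of signal. The summed signal of the arrays was set alike before deposit, with a trimmed mean of 500.1 in each of the 6 arrays and medians of 243.2 to 285.6. The ratio of 3' to 5' signal for beta-actin, a measure of RNA integrity, was 1.40, 1.44 and 1.39 in the vehicle animals and 1.64, 1.51 and 1.23 in the dosed animals. For Gapdh it was 1.16, 1.23 and 1.20 against 1.19, 1.21 and 1.34. The markers of neurons were bright in every piece, with Snap25, a membrane fusion protein of nerve terminals, between 13.28 and 13.58. In bulk tissue, fewer cells of a type and less RNA per cell cannot be told apart.

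No probe set differed between the 5 mg/kg and the vehicle animals after adjustment. Of 11106 probe sets tested in limma, 0 had a Benjamini-Hochberg adjusted p under 0.05 (0%), and the lowest adjusted p was 1.00. An unadjusted p under 0.05 was reached by 457 probe sets (4.11%), of which 235 were higher at 5 mg/kg (2.12%) and 222 were lower (2%). All 3 dosed animals lay above all 3 vehicle animals in 656 probe sets (5.91%) and below them in 623 (5.61%). The values that follow therefore describe these 6 animals, and none of the genes named passed the test. Every adjusted p of a named gene in this contrast was 1.00.

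Among the 12 genes with the smallest p in the higher direction, the potassium channel subunit Kcns1, a modifier of Kv2 channels, had the largest difference. Its log2 intensity was 6.67, 6.11 and 6.95 in vehicle animals 1 to 3 and 8.20, 8.49 and 8.69 in dosed animals 1, 3 and 4. The lowest dosed animal was above the highest vehicle animal by more than the whole range of the vehicle group. The difference was 1.88 ± 0.48 (SE of the fit, n = 3 per group), a fold of 3.69. Kcns1 was also above vehicle at 1 mg/kg by 1.59 and at 10 mg/kg by 0.88, against the same 3 vehicle animals. In experiment B its difference was -0.81, with the 5 mg/kg animal at 6.28 and the vehicle animals at 6.14 to 7.69. Of the 12 higher genes, 4 had the same sign in experiment B.

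Cyp27a1, the mitochondrial sterol 27-hydroxylase, was at 6.73, 7.30 and 7.18 in the vehicle animals and at 7.75, 8.03 and 7.9997 in the dosed animals, a difference of 0.85 ± 0.20. The groups did not overlap, and vehicle animal 1 was the lowest of the 6. Slc25a18, a mitochondrial glutamate carrier of astrocytes, read 8.43, 8.77 and 9.16 against 9.40, 9.35 and 9.41, so that the dosed animals were nearly alike while the vehicle animals spread widely. Its difference was 0.60 ± 0.16. Kdm5c, an X-linked histone H3 lysine 4 demethylase, read 7.22, 6.32 and 7.18 against 7.82, 7.81 and 7.56. Here vehicle animal 2 was low, and the difference of 0.82 ± 0.22 was 0.53 without that animal. In experiment B the differences of Cyp27a1, Slc25a18 and Kdm5c were -0.49, -0.67 and -0.03.

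Stard8, a START domain protein, was the most even of the higher genes. Its values were 8.10, 8.21 and 8.21 in the vehicle animals and 8.83, 8.91 and 8.82 in the dosed animals, a difference of 0.68 ± 0.18. It was also above the vehicle range in experiment B's 5 mg/kg animal, at 8.94 against 8.36 to 8.58. Gfra2, the neurturin receptor, read 9.08, 9.31 and 9.45 against 10.07, 9.80 and 9.87. The difference was 0.63 ± 0.17 in experiment C and -0.54 in experiment B, where the dosed animal at 8.92 lay under the vehicle range of 9.19 to 9.67. The difference between the experiments for Gfra2 was 1.18 ± 0.26 with an adjusted p of 0.14 in limma.

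The remaining genes of this group were Myo1c, a class I myosin (0.78 ± 0.18), Ier5, an immediate early gene (0.61 ± 0.15), Cux2, a transcription factor of upper-layer cortical neurons (0.65 ± 0.18), Foxc2, a forkhead factor (0.64 ± 0.19), Tspan5, a tetraspanin (0.42 ± 0.13), and Enc1, an actin-binding protein of neurons (0.33 ± 0.09). Myo1c has another probe set with the opposite sign, so its direction is uncertain. Values of Ier5 were 9.78, 10.30 and 10.34 in the vehicle and 10.65, 10.79 and 10.81 in the dosed animals. In none of the 12 genes did the groups overlap, which the choice by p favours.

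Among the 12 genes with the smallest p in the lower direction, Ccdc117 had the largest and the least even difference. It read 6.90, 7.17 and 7.14 in the vehicle animals and 4.88, 6.74 and 5.49 in the dosed animals. The dosed animals spread far more than the vehicle animals, with animal 3 close to the vehicle group. The difference was -1.37 ± 0.42 and was -0.96 without dosed animal 1. Ccdc117 was also lower than the mean of the 1 and 10 mg/kg animals, with a difference of -1.15 ± 0.35 and an adjusted p of 1.00 in limma.

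Pcp4l1, a small protein related to the calmodulin regulator Pcp4, read 9.94, 8.75 and 9.40 in the vehicle animals and 8.34, 8.28 and 8.19 in the dosed animals. The dosed animals were alike and the vehicle animals were spread, with animal 1 the highest. The difference was -1.09 ± 0.32, and -0.80 without vehicle animal 1. Bex4, a brain-expressed X-linked gene, read 9.13, 8.77 and 8.93 against 8.17, 7.90 and 8.19. The groups were separated by more than the range of either, and the difference was -0.86 ± 0.25. Syncrip-ps2, annotated as a pseudogene of the RNA-binding protein Syncrip, read 8.85, 9.003 and 9.02 against 7.98, 8.57 and 8.28, a difference of -0.68 ± 0.17. As a near copy of a coding gene its probe set may also detect Syncrip itself.

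Hs3st1, a heparan sulfate 3-O-sulfotransferase, was at 9.38, 9.10 and 9.53 in the vehicle animals against 8.74, 8.92 and 8.40 in the dosed animals, a difference of -0.65 ± 0.18. Plagl2, a zinc finger transcription factor, read 7.48, 7.48 and 7.56 against 7.08, 6.46 and 7.06, with a difference of -0.64 ± 0.19. In Plagl2 the vehicle animals were nearly alike and dosed animal 3 was far below the others. Emd, the inner nuclear membrane protein emerin, showed the same layout, with 8.93, 9.001 and 8.98 against 8.72, 8.24 and 8.71. The other members were the co-chaperone Dnajc12 (-0.41 ± 0.13), in which the nearest dosed and vehicle animals touched, the salt-inducible kinase Sik3 (-0.37 ± 0.11), LOC100912167 (-0.50 ± 0.13), LOC100911193 (-0.45 ± 0.14) and Pon2, described with the serine hydrolases and paraoxonases.

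**Figure D1:**
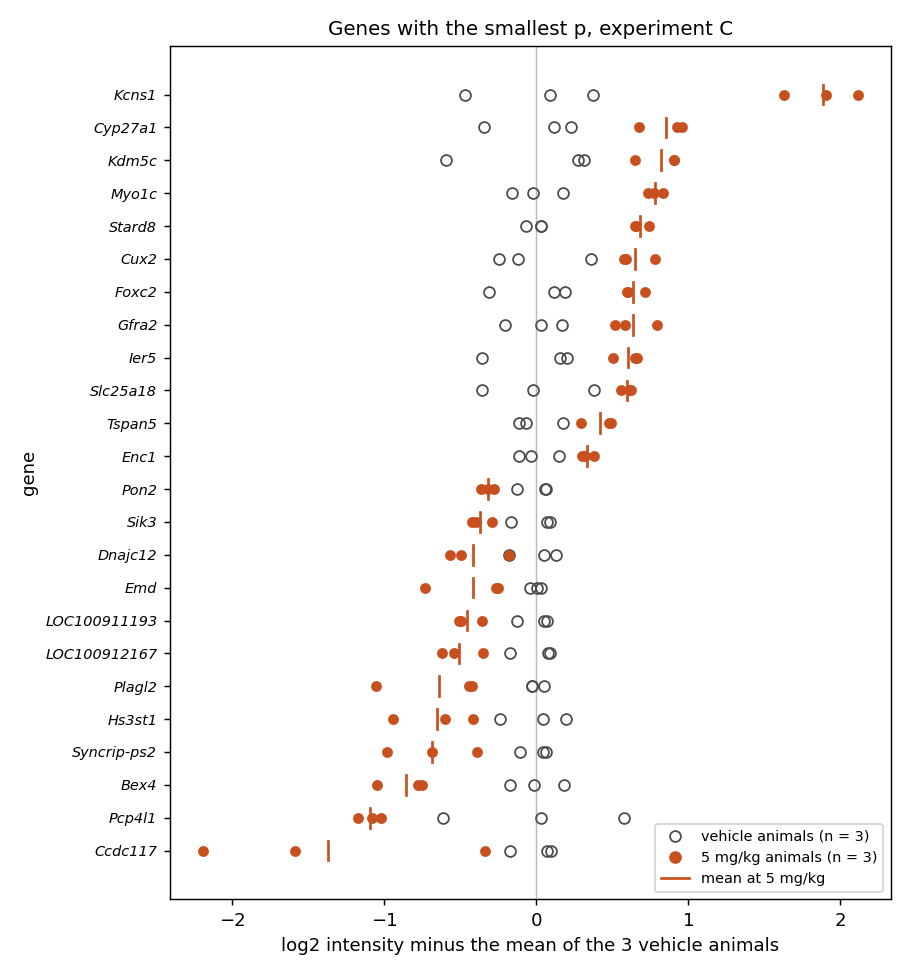
Each row is a gene and the x axis gives log2 intensity minus the mean of the 3 vehicle animals, with open circles for vehicle animals, filled circles for 5 mg/kg animals and a short line at the dosed mean. The 12 genes at the top lie above 0 and the 12 at the bottom below it in all 3 dosed animals, with Kcns1 the farthest up at 1.88 and Ccdc117 the farthest down at -1.37.

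Of the serine hydrolases and paraoxonases, butyrylcholinesterase, Bche, read 7.26, 6.88 and 7.25 in the vehicle animals and 7.02, 7.34 and 7.16 in the dosed animals. The groups overlapped and the difference was 0.04 ± 0.19. Pon2, a paraoxonase family member found in mitochondria and the endoplasmic reticulum, read 10.33, 10.14 and 10.32 against 9.95, 9.90 and 9.98. All 3 dosed animals were below all 3 vehicle animals. The difference was -0.32 ± 0.10, close to the -0.28 and -0.32 at 1 and 10 mg/kg against the same vehicle animals. In experiment B the 5 mg/kg animal lay on the other side, at 10.40 against 10.02 to 10.26 in its vehicle animals. Activity of Pon2 on the oxon was not measured.

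Of 16 measured serine hydrolases and paraoxonases, 12 were higher and 4 lower, against 50.4% higher and 49.6% lower over all probe sets, with a median difference of 0.10 against 0.0013 over all. Unadjusted p was under 0.05 for 1 in each direction, where 2.12% of all probe sets were higher and 2% lower at that level. Dpp4, a dipeptidyl peptidase of the cell surface, read 7.10, 7.33 and 7.48 in the vehicle animals and 8.21, 7.89 and 7.80 in the dosed animals, a difference of 0.66 ± 0.25. Mgll, the monoacylglycerol lipase that degrades the endocannabinoid 2-arachidonoylglycerol and a known organophosphate target, read 9.78, 9.81 and 10.00 against 10.52, 10.15 and 10.15. Both sets of values were free of overlap, and the difference for Mgll was 0.41 ± 0.21.

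Of 29 genes listed for cholinergic signalling, 26 are on the array and 16 passed the filter on dim probe sets. Of these, 10 were higher and 6 lower, with a median of 0.04, against 50.4% higher over all probe sets. In each direction 1 had an unadjusted p under 0.05, against 2.12% higher and 2% lower over all, so the counts are near the background. Slc5a7, the high-affinity choline transporter of cholinergic terminals, read 8.04, 6.98 and 7.49 in the vehicle animals and 6.35, 6.21 and 7.24 in the dosed animals. The groups overlapped, since dosed animal 4 was above vehicle animal 2. The difference was -0.91 ± 0.33, and -0.64 without vehicle animal 1. At 1 and 10 mg/kg it was -0.33 and -0.89 against the same vehicle animals, and in experiment B it was 0.61.

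The receptor genes named below differed in size and direction in experiment C. Of the 16 cholinergic genes, 2 lay above vehicle without overlap and 0 below, against 5.91% and 5.61% of all probe sets. The nicotinic subunit gene Chrna2 read 7.14, 6.90 and 6.64 in the vehicle animals and 7.29, 7.42 and 7.41 in the dosed animals, without overlap, a difference of 0.48 ± 0.20. Lynx1, a membrane-anchored modulator that damps nicotinic receptors, read 9.49, 9.71 and 9.70 against 9.89, 10.14 and 9.78, also without overlap, a difference of 0.30 ± 0.18. For the nicotinic subunits Chrna7 and Chrna4 the differences were 0.29 ± 0.18 and 0.20 ± 0.17. The muscarinic receptor gene Chrm1 had the largest difference of the list at 0.99 and also the largest error, 0.82. It read 7.16, 6.36 and 4.53 in the vehicle animals and 7.92, 6.90 and 6.19 in the dosed animals, both groups being widely spread, and the difference was 0.24 without vehicle animal 3. Chrm2, Chrm3 and Chrm4 differed by 0.00, 0.20 and -0.06. In experiment B, 3 of the 16 cholinergic genes were higher in the 5 mg/kg animal, with a median of -0.18. There Chrm1 differed by -0.65 and Chrna2 by -0.40, the latter at 6.89 against 7.07 to 7.54 in the vehicle animals.

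The list with the largest share of members in which all dosed animals lay under all vehicle animals was that of the cytosolic ribosomal proteins, the structural proteins of the ribosome. Of 41 measured, 40 were lower and 1 was higher, against 49.6% lower over all probe sets, and the median difference was -0.19 against 0.0013. All 3 dosed animals were below all 3 vehicle animals in 23 of the 41, against 5.61% of all probe sets, and 6 had an unadjusted p under 0.05 against 2%. No member passed the test, and the members are not independent of each other. Summed over the list, the linear signal was 194070 to 200210 in the vehicle animals and 161330 to 180170 in the dosed animals. The median kept its sign without each of the 6 arrays, between -0.23 and -0.14.

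Rps29, a small subunit protein, had the largest difference of the list. It read 13.58, 13.51 and 13.71 in the vehicle animals and 13.34, 13.02 and 12.94 in the dosed animals, with no overlap and a difference of -0.50 ± 0.17, a fold of 0.706. Rpl13a, a large subunit protein that is often used as a reference gene, read 11.74, 12.01 and 12.02 against 11.65, 11.46 and 11.30, a difference of -0.45 ± 0.16. Dosed animal 4 was the lowest in both genes. Rps3 (-0.29 ± 0.12) and Rpl21 (-0.33 ± 0.15) also had animal 4 lowest. Rps6, the target of the S6 kinases, read 12.70, 12.72 and 12.80 against 12.45, 12.56 and 12.63, and Rpl6 read 12.66, 12.65 and 12.56 against 12.44, 12.42 and 12.42. Their differences were -0.20 ± 0.08 and -0.19 ± 0.08, with dosed animal 4 not the lowest in Rps6. Members with the smallest differences were Rpl4 (-0.06 ± 0.10), Rpl39 (-0.04 ± 0.13) and Rpl7l1, a paralog rather than a core subunit (0.02 ± 0.13). Ribosomal protein genes have many processed pseudogenes of near-identical sequence, and signal from such copies cannot be separated from that of the genes.

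**Figure D2:**
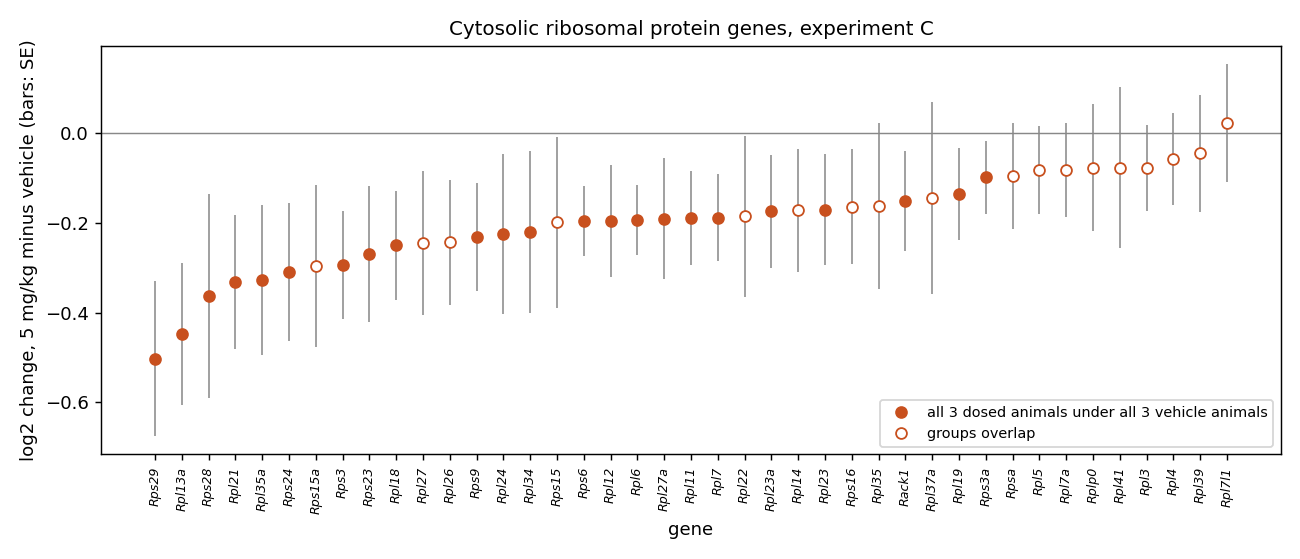
The y axis gives the log2 difference, 5 mg/kg minus vehicle, for each of the 41 ribosomal protein genes along the x axis, with bars of 1 SE and filled points where the groups of 3 do not overlap. All points but Rpl7l1 lie under 0, and 23 are filled.

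Vertebrate ribosomal protein genes are known for a start site inside a pyrimidine tract, which becomes the 5' end of the message. The promoters of 5 of the 6 members with an unadjusted p under 0.05 are shown. Rps29, which had the smallest p of the list, is not among them. Members without an entry in the RefSeq promoter table (GRCr8), which held 37 of the 41, could not be shown. Entries on a chromosome that was left out were also passed over. Each runs 5' to 3' on the gene's strand, from 60 bases before the annotated start to 20 after it, with capitals for CTTTCC and CTTCCG on either strand, letters that were chosen after the sequences had been seen.
Rpl13a: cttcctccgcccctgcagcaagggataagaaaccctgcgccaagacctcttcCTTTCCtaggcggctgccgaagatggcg
Rps6: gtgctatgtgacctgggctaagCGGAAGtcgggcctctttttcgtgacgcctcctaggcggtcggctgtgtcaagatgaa
Rpl6: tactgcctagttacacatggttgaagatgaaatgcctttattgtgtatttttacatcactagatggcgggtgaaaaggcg
Rps3: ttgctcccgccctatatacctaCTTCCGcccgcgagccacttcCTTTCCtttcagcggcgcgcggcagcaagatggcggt
Rpl21: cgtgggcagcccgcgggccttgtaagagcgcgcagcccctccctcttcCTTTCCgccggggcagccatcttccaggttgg
These lie at chr1:104748894-104748973, chr5:106420521-106420600, chr12:41011671-41011750, chr1:163195757-163195836 and chr12:13386134-13386213, in that order, all on the minus strand. CTTTCC is present in the windows of Rpl13a, Rps3 and Rpl21, and CTTCCG or its complement in those of Rps6 and Rps3. Over the whole 300 bases of each table entry and both strands, CTTTCC occurred in 43.2% of the 37 ribosomal promoters and in 26.4% of all 27457, and CTTCCG in 51.4% and 17.4%. A match is a description of letters. The window of Rpl6 holds neither.

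The mitochondrial respiratory chain, whose nuclear subunits are also abundant, had 57 of 82 measured members lower and a median of -0.11, with 0 members at an unadjusted p under 0.05 in either direction, against 2.12% and 2%. Its list score was -0.04, 0.07 and 0.11 in the vehicle animals and 0.12, 0.08 and -0.32 in the dosed animals, so dosed animal 4 alone lay low. The same animal had the lowest ribosomal score of the 6, at -0.20, and the other dosed animals read -0.03 and -0.0021 there against 0.10 to 0.15 in the vehicle animals. Proteasome subunits had 20 of 32 lower and a median of -0.03.

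Genes of cortical excitatory neurons lay above vehicle. Of 18 measured markers, 16 were higher, with a median difference of 0.36 against 0.0013 over all probe sets, 5 without overlap against 5.91%, and 6 at an unadjusted p under 0.05 against 2.12%. The median deviation of the list, relative to the mean of the 14 arrays, was -0.46, 0.08 and -0.35 in vehicle animals 1 to 3 and 0.24, 0.12 and -0.01 in the dosed animals. Vehicle animal 2 therefore lay within the range of the dosed group and vehicle animals 1 and 3 below it.

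Cux2 read 7.89, 8.37 and 7.76 in the vehicle animals and 8.60, 8.59 and 8.79 in the dosed animals. Stx1a, a plasma membrane SNARE protein, read 10.17, 10.79 and 10.30 against 11.49, 10.90 and 10.64, with overlap and a difference of 0.59 ± 0.22. Mef2c, a transcription factor of excitatory neurons, read 11.65, 12.13 and 11.54 against 12.37, 12.15 and 12.22, a difference of 0.47 ± 0.20. In all 3 genes vehicle animal 2 was the highest vehicle animal, as in the score of the list. Rgs4, a regulator that shortens G protein signalling of muscarinic and other receptors, was even in the vehicle group at 11.59, 11.63 and 11.58 and read 12.03, 12.03 and 11.79 in the dosed animals, a difference of 0.35 ± 0.14. Nrgn, the calmodulin-binding protein neurogranin, read 12.54, 12.47 and 12.46 against 13.22, 12.85 and 12.57. Slc17a7, the cortical vesicular glutamate transporter, overlapped at 11.93, 12.58 and 12.05 against 12.85, 12.58 and 12.23.

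Synaptic vesicle and release genes followed the same layout with smaller values. Of 35 measured, 29 were higher, against 50.4% of all probe sets, with a median of 0.15. The 2 without overlap (Syn1 and Napa) are near the 5.91% of all probe sets, and 3 had an unadjusted p under 0.05 against 2.12%. Syn1, the vesicle phosphoprotein synapsin 1, read 11.86, 12.21 and 11.88 in the vehicle animals and 12.62, 12.27 and 12.24 in the dosed animals, a difference of 0.39 ± 0.14. Dosed animal 1 was the highest in Syn1 and Stx1a, and the median of the list was 0.04 without it. Dnm1, the endocytic GTPase dynamin 1, read 12.86, 13.29 and 13.22 against 13.47, 13.46 and 13.22.

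Voltage-gated ion channels were split, with 26 of 44 higher and a median of 0.07, while 6 lay above vehicle without overlap and 0 below, against 5.91% and 5.61% of all probe sets. The 4 with an unadjusted p under 0.05, against 2.12% higher over all, were all potassium channel genes. Kcnab2, a cytoplasmic beta subunit of Shaker-type channels, read 10.25, 10.34 and 10.39 in the vehicle animals and 10.96, 11.12 and 10.99 in the dosed animals, a difference of 0.70 ± 0.22, with the groups far apart relative to their spread. Kcnma1, the large-conductance calcium-activated channel, read 8.81, 8.40 and 8.56 against 9.06, 8.95 and 9.05. Kcnh3 read 9.76, 10.33 and 9.76 against 10.54, 10.50 and 10.42, and Kcnj9, a G protein-gated inward rectifier, overlapped at 7.65, 7.37 and 6.15 against 7.90, 7.82 and 7.63. The sodium channel gene Scn1a also lay above without overlap, at 9.54, 9.60 and 9.89 against 9.91, 10.26 and 10.48.

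Of 26 glutamate receptors and transporters, 16 were higher, against 50.4% of all probe sets, with a median of 0.08. At an unadjusted p under 0.05, 1 was higher and 0 lower, against 2.12% and 2%. In experiment B, 3 of the 26 were higher, with a median of -0.24. In experiment C, 3 of the 26 lay above vehicle without overlap and 0 below, against 5.91% and 5.61% of all probe sets. These were the NMDA receptor subunit genes Grin1, Grin2a and Grin2b, with differences of 0.21 ± 0.18, 0.34 ± 0.21 and 0.28 ± 0.19. The metabotropic receptor gene Grm2 read 7.90, 8.88 and 8.45 against 9.59, 8.90 and 8.82, a difference of 0.69 ± 0.29 in which dosed animal 1 was the highest. The GABA system had 10 higher and 10 lower and a median of 0.0025.

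Markers of regions next to the cortex lay the other way, and their list scores spread more within the vehicle group than the group means were apart. Of 22 striatal markers, 21 were lower, with a median of -0.64, 3 without overlap against 5.61% and 1 at an unadjusted p under 0.05 against 2%. Tac1, the substance P precursor of striatal projection neurons, read 11.12, 8.67 and 9.66 in the vehicle animals and 7.71, 9.18 and 9.0006 in the dosed animals. Drd1, the D1 dopamine receptor, read 11.34, 9.70 and 10.37 against 8.86, 9.68 and 9.52, and Penk, preproenkephalin, read 13.40, 12.05 and 12.66 against 11.30, 12.21 and 12.19. In each the order was the same, with vehicle animal 1 highest, vehicle animal 3 next and dosed animal 1 lowest. Vehicle animal 2 lay beside dosed animals 3 and 4.

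The summed striatal signal ran from 25738 to 62665 in the vehicle animals and from 17756 to 32360 in the dosed animals, so the ranges overlapped. The list's median deviation was 1.34, 0.01 and 0.50 in the vehicle animals against -0.53, 0.14 and 0.20. The median difference was -0.28 without vehicle animal 1, which is also the animal labelled 1st repeat, and -0.95 without vehicle animal 2. In every piece Drd1 and Adora2a, defining markers of striatum, read at least 8.86 and 8.33. Vehicle animals 1 and 3, the highest in striatal markers, were the lowest in the cortical neuron score, and their part in the cortical, synaptic and channel values was not tested. Slc5a7, which cholinergic neurons of striatum and basal forebrain express, had the same order in the vehicle animals, with animal 1 highest and animal 2 lowest. Arpp21, a cyclic AMP-regulated phosphoprotein of striatal neurons that cortex also expresses, had the smallest p of the list, at 12.34, 11.47 and 11.66 against 10.80, 11.19 and 11.23, but other probe sets of this gene include 1 of the opposite sign.

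All 12 markers of hypothalamus and basal forebrain were lower, with a median of -0.40, and 1 vehicle animal set much of this. Vehicle animal 3 read 11.76 for Oxt and 11.51 for Avp, the hormones of the magnocellular neurons, while the other 5 animals read 5.91 to 7.09 and 6.71 to 7.73. Pmch, the melanin-concentrating hormone precursor of lateral hypothalamus, was 8.82 in vehicle animal 3 and 7.44 to 7.79 in the other 5. Without that animal the median of the list was -0.04. Cartpt, the precursor of the CART peptides, had another order, at 10.00, 9.42 and 9.05 in the vehicle animals and 8.24, 8.72 and 9.15 in the dosed animals, a difference of -0.79 ± 0.36.

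Of 18 oligodendrocyte and myelin markers, 17 were lower, against 49.6% of all probe sets, with a median of -0.31. In either direction 0 lay without overlap, against 5.91% higher and 5.61% lower over all probe sets. Mog, a protein of the outer myelin surface, read 10.73, 10.17 and 11.07 in the vehicle animals and 9.89, 10.39 and 10.10 in the dosed animals. Mbp, myelin basic protein, was near the top of the scale at 13.95, 13.71 and 13.88 against 13.65, 13.83 and 13.83. Again vehicle animals 1 and 3 were high and vehicle animal 2 lay among the dosed animals, and the median was -0.16 without vehicle animal 3 and -0.52 without vehicle animal 2. The exception in sign was Enpp2, which choroid plexus also expresses.

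Choroid plexus markers split the 6 animals across the groups. Ttr, transthyretin, which the choroid plexus secretes, read 13.95 in vehicle animal 3 and in dosed animals 3 and 4, the highest value of the normalised scale, and 7.40, 7.51 and 8.34 in vehicle animals 1 and 2 and dosed animal 1. Sostdc1 followed with 10.22, 10.12 and 10.12 in the first 3 and 7.25 to 7.59 in the others. Of 9 measured markers 8 were higher, with a median of 0.58 that was 0.27 without dosed animal 3 or 4 and 1.14 without dosed animal 1. The summed signal of the list ran from 3502.8 to 24478 in the vehicle animals and from 3223.5 to 26815 in the dosed animals. Meningeal and fibroblast markers had 18 of 21 higher, against 50.4% of all probe sets, and a median of 0.16. Their list score was -0.55, 0.25 and 0.40 in dosed animals 1, 3 and 4. In the vehicle animals it was -0.06, 0.0036 and -0.38, so dosed animal 1 was the lowest. Dosed animals 3 and 4 were highest in the collagen gene Col3a1 (8.62 and 9.13 against 7.76 to 8.29 in the other 4). The same was true of the collagen-binding Fmod (8.69 and 9.19 against 7.43 to 8.30). Class II genes of antigen-presenting cells read alike, with RT1-Bb at 8.06 and 8.53 in those animals and 6.40 to 7.51 in the other 4. The microglial markers as a whole were evenly split, with 12 of 23 higher and a median of 0.0093.

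**Figure D3:**
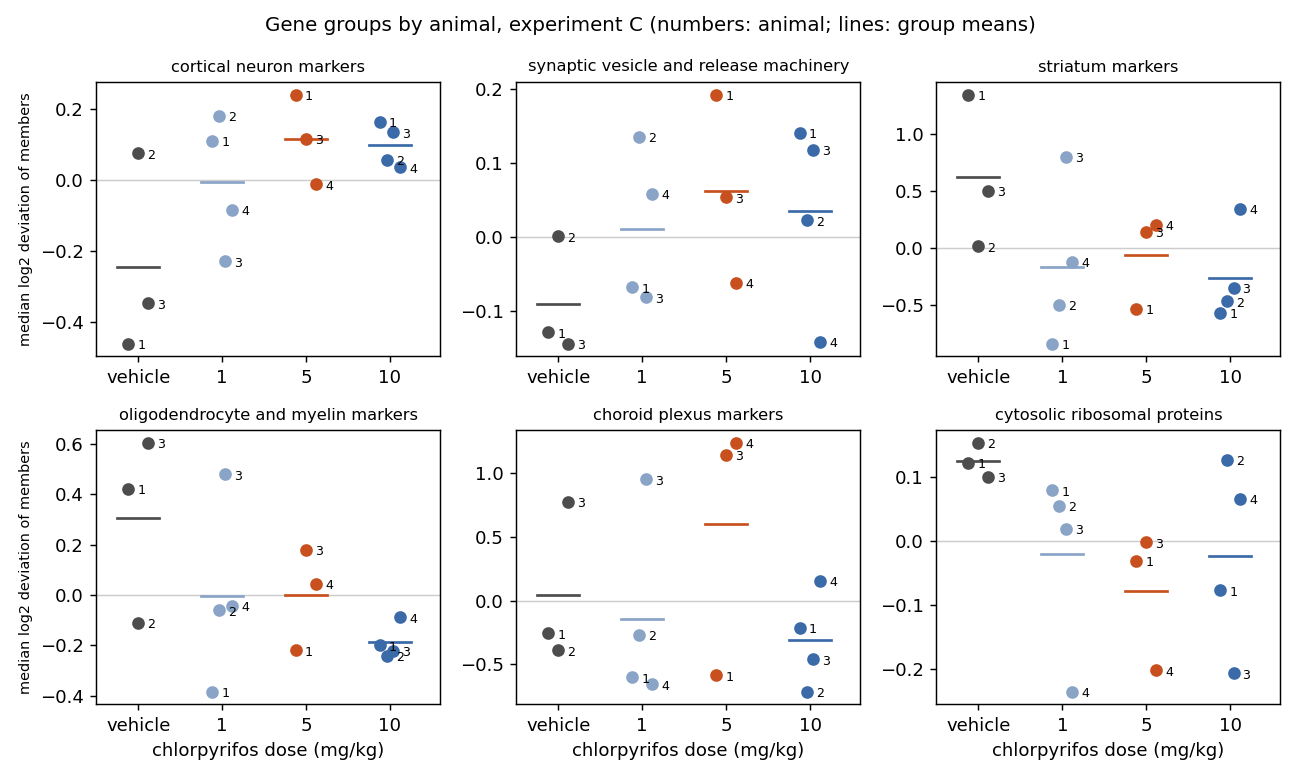
Each panel is a gene list, the x axis gives the dose in mg/kg within experiment C, and the y axis gives the median over members of log2 intensity minus the mean of the 14 arrays, with 1 point per animal (numbered) and a line at the group mean. Among the 6 animals compared, vehicle animals 1 and 3 stand high in striatal and myelin markers and low in cortical markers. Among the same 6, choroid plexus markers separate vehicle animal 3 and dosed animals 3 and 4 from the others. At 1 mg/kg, animal 3 also stands high, at 0.95 in choroid plexus, 0.80 in striatal and 0.48 in myelin markers. Ribosomal proteins are, of these 6 lists, the one in which the 3 animals at 5 mg/kg lie under the 3 vehicle animals.

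Immediate early and activity-regulated genes, which neuronal firing induces within minutes to hours, showed no common direction. Of 29 measured, 14 were higher and 15 lower, with a median of -0.04. Without overlap, 5 were lower and 1 was higher, against 5.61% and 5.91% of all probe sets. Fos read 8.19, 8.11 and 8.29 in the vehicle animals and 7.80, 6.94 and 6.69 in the dosed animals, a difference of -1.06 ± 0.50. Nr4a1, an orphan nuclear receptor, read 9.83, 9.90 and 9.88 against 9.68, 9.10 and 9.27, a difference of -0.52 ± 0.18. In both genes the vehicle animals were close together and dosed animals 3 and 4 lay lowest. Junb read 8.85, 9.14 and 8.89 against 8.71, 8.49 and 8.82, and Arc, which overlapped, differed by -0.32 ± 0.15. Egr1 read alike in all 6 animals, between 11.51 and 11.63. Crem, a cyclic AMP-responsive factor, lay the other way at 8.07, 8.02 and 8.06 against 8.24, 8.34 and 8.43, and Rasd1 overlapped with a difference of 0.59 ± 0.26. In experiment B, Fos, Nr4a1, Junb and Arc were above vehicle in the 5 mg/kg animal, by 0.34, 0.59, 0.57 and 0.35, where Junb at 9.58 lay above the 8.60 to 9.49 of its 4 vehicle animals and the other 3 genes lay within the vehicle range.

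Glucocorticoid-responsive genes had 10 of 24 higher and a median of -0.06. Rhob, a small GTPase, read 11.95, 12.05 and 12.22 in the vehicle animals and 11.67, 11.84 and 11.55 in the dosed animals, a difference of -0.39 ± 0.14, while in experiment B it was 0.43. The difference between the experiments for Rhob was -0.82 ± 0.23, with an adjusted p of 0.26 in limma. Among 16 clock genes 12 were higher with a median of 0.10, led by Bhlhe40, a clock-controlled repressor, at 7.93, 9.01 and 8.74 against 9.32, 9.32 and 9.50. Its difference of 0.82 ± 0.26 was 0.50 without vehicle animal 1. Its relative Bhlhe41 lay the other way, at 10.77, 10.52 and 10.72 against 10.11, 10.49 and 10.40.

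Lists of stress and defence each held 0 to 3 members without overlap per direction. Over all probe sets, 5.91% were higher and 5.61% lower without overlap. Above and below vehicle, inflammation genes held 2 and 1 of 20, and xenobiotic metabolism 2 and 1 of 27. Heat shock genes held 3 and 0 of 31, and oxidative stress genes 2 and 0 of 26. Apoptosis and cell cycle genes held 0 and 2 of 26, and cholesterol synthesis genes 1 and 1 of 24. Inflammation genes had 16 of 20 higher, against 50.4% of all probe sets, with a median of 0.11 against 0.0013 and 1 at an unadjusted p under 0.05. They included the chemokine gene Cxcl12 at 9.42, 9.94 and 9.44 against 10.11, 10.10 and 10.02 and Il18 lower without overlap (-0.41 ± 0.20). Other probe sets of Cxcl12 include 1 of the opposite sign. Xenobiotic metabolism had 16 of 27 higher and a median of 0.09, with the glutathione transferase gene Gstm1 lower without overlap, at 10.89, 11.09 and 10.81 against 10.60, 10.69 and 10.57. Heat shock and unfolded protein genes had 17 of 31 higher and a median of 0.03, with the endoplasmic reticulum chaperone Hyou1 at 6.82, 6.80 and 6.57 against 7.04, 7.36 and 7.15. Oxidative stress genes had 16 of 26 higher, and apoptosis and cell cycle genes 14 of 26, with 0 members of either at an unadjusted p under 0.05. Cholesterol synthesis genes were split, 12 higher and 12 lower, and Ebp, a sterol isomerase, read 7.42, 7.30 and 7.65 against 7.20, 6.69 and 7.03.

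Of 24 growth factor genes, 1 was higher and 0 lower at an unadjusted p under 0.05, against 2.12% and 2% of all probe sets. Among 22 monoamine genes, 1 was higher and 1 lower at that level. Fgf9 read 8.05, 8.28 and 8.11 in the vehicle animals and 8.59, 8.53 and 8.55 in the dosed animals, a difference of 0.41 ± 0.17 in a list with 15 of 24 higher. Adra1b, which overlapped, differed by 0.59 ± 0.26 and Adra2c by -0.49 ± 0.22, the latter at 9.33, 8.68 and 8.68 against 8.32, 8.33 and 8.58. Without vehicle animal 1 the difference for Adra2c was -0.27. Cytoskeleton and axon genes had 21 of 36 higher, with Nrp1, a semaphorin co-receptor, at 7.94, 8.25 and 7.64 against 8.28, 8.39 and 8.44 and the heavy neurofilament gene Nefh overlapping with a difference of 0.75 ± 0.30. Map4, a microtubule-associated protein, differed by -0.54 ± 0.23 with overlap. Mertk, a phagocytic receptor tyrosine kinase, read 8.62, 8.36 and 7.78 against 8.86, 8.70 and 8.88. It was above vehicle in both experiments that hold the dose, by 0.56 in experiment C and 0.57 in experiment B, but the former was 0.33 without vehicle animal 3.

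The 5 mg/kg animals were also set against the other dosed animals of experiment C. These include 1 mg/kg animal 1, whose beta-actin ratio was 4.72 against 1.23 to 1.83 in the other fitted arrays of experiment C. Its array also enters the estimate of the spread. Of 11106 probe sets, 0 differed from the mean of 1 and 10 mg/kg at an adjusted p under 0.05 in limma (0%), and 120 had an unadjusted p under 0.05 (1.08%). Median differences from the shared vehicle animals at 1, 5 and 10 mg/kg were -0.14, -0.19 and -0.15 for ribosomal proteins, 0.23, 0.36 and 0.32 for cortical neuron markers, -0.80, -0.64 and -0.89 for striatal markers and -0.31, -0.31 and -0.53 for myelin markers. The 3 comparisons use the same 3 vehicle animals, so like values are partly 1 measurement. Choroid plexus markers differed in this respect, at -0.08, 0.58 and -0.18. Their list score was -0.60, -0.27, 0.95 and -0.65 in the 1 mg/kg animals. It was -0.59, 1.14 and 1.24 in the 5 mg/kg animals and -0.25, -0.39 and 0.78 in the vehicle animals. High and low animals thus occurred in each of these groups. The direct difference of 5 mg/kg from the mean of 1 and 10 mg/kg had a list median of -0.05 for ribosomal proteins, 0.02 for cortical markers and 0.19 for striatal markers. Ribosomal scores overlapped between the doses, and 1 mg/kg animal 4 and 10 mg/kg animal 3 read lower than any 5 mg/kg animal. Of the named genes, Syncrip-ps2 and Emd differed from the mean of 1 and 10 mg/kg by -0.46 ± 0.14 and -0.35 ± 0.11, each with an adjusted p of 1.00.

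The single animal at 5 mg/kg in experiment B had the opposite sign in most probe sets. Its array was dim, with a median intensity of 112.2 and a trimmed mean of 205.2, while its beta-actin ratio of 1.41 was below the 1.66 to 2.15 of the 4 vehicle animals. After normalisation 45.7% of all probe sets lay outside the range of those vehicle animals, so a value outside the range is common in this animal. The sign of the difference was that of experiment C in 42.3% of all probe sets, in 4 of the 12 higher and in 7 of the 12 lower genes with the smallest p. Ribosomal proteins had 39 of 41 higher and a median of 0.22, cortical neuron markers a median of -0.19, synaptic genes -0.26 and striatal markers 0.87. Microglial markers had a median of 0.59 and glucocorticoid-responsive genes 0.55 in that animal, against 0.0093 and -0.06 in experiment C.

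The difference between the experiments was tested with a contrast over all 39 arrays. At an adjusted p under 0.05 in limma, 0 of 11106 probe sets differed (0%), and 1126 had an unadjusted p under 0.05 (10.1%). With 1 animal on the B side, that animal was assumed to vary like the other groups. Rpl13a, for example, differed by -0.78 ± 0.21 between the experiments, at 11.99 in the B animal against 11.45 to 11.83 in its vehicle animals, with an adjusted p of 0.26.

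**Figure D4:**
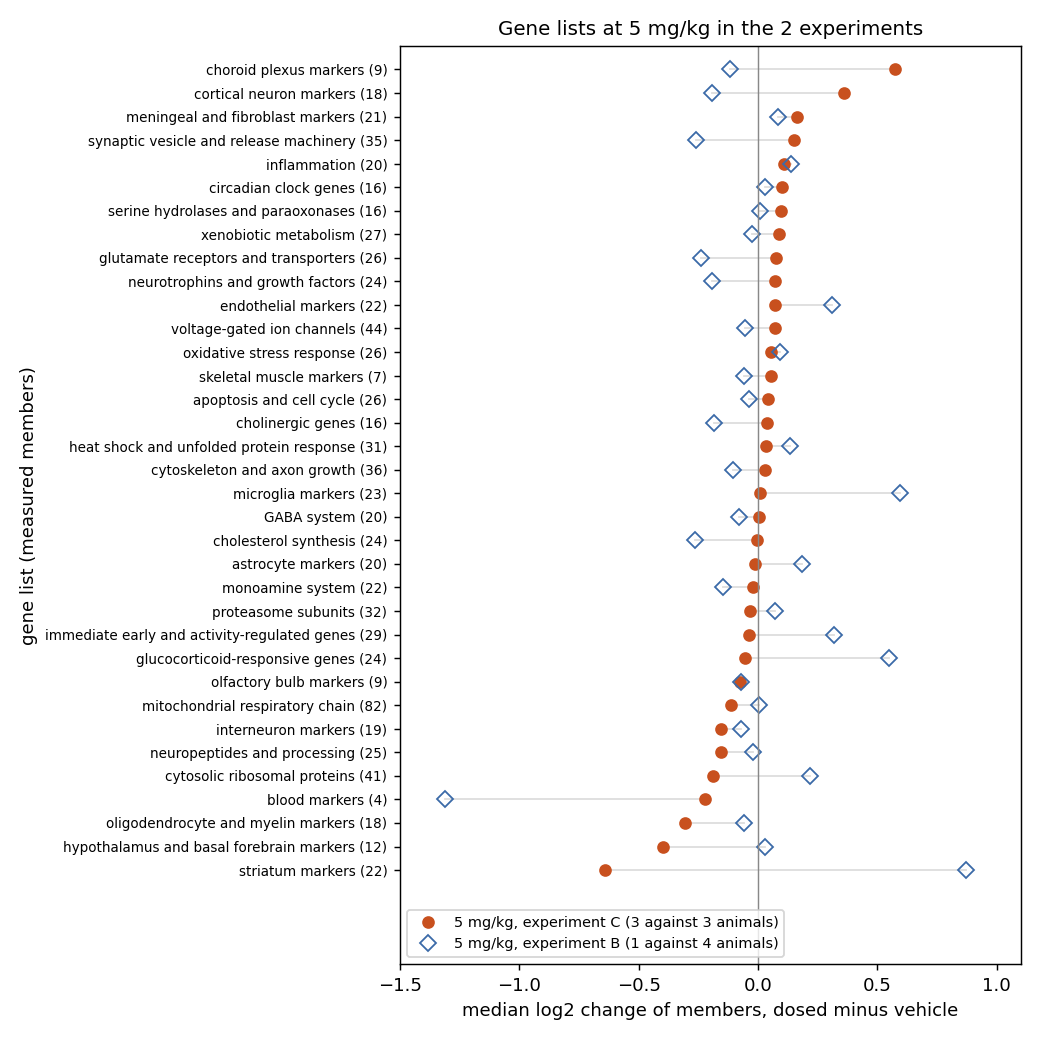
The x axis gives the median log2 difference of the measured members (their number in brackets) of each of 35 gene lists on the y axis, filled circles for 5 mg/kg minus vehicle in experiment C with 3 against 3 animals and open diamonds for experiment B with 1 against 4. Striatal markers (-0.64 and 0.87), ribosomal proteins (-0.19 and 0.22), cortical neuron markers (0.36 and -0.19) and synaptic genes (0.15 and -0.26) lie on opposite sides of 0 in the experiments.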

How the data were processed

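The authors deposited 1 table of linear signal intensity for 46 arrays and 15923 probe sets. The software behind these intensities was not given in the sources used here, and the table holds no detection calls. The number of arrays limits the precision. The 39 arrays whose columns share a row order were given equal medians, a floor at the 5th percentile (an intensity of 10.9), a log2 transform and quantile normalisation. The 57 controls and probe sets with a mean under the 30th percentile were left out. Symbols came from the platform table, where 12783 probe sets carry 1 symbol, 312 several and 2771 none. The 14 arrays of experiment C were fitted with limma 3.58.1 (R 4.3.3), 1 mean per dose and moderation with a trend, two-sided, with Benjamini-Hochberg adjustment at 0.05. The fit was tested on simulated data. Genes were named by rule: per direction the 12 with the smallest unadjusted p, up to 4 members of each of 35 lists with an unadjusted p under 0.05, and Bche, Chrm1 and Pon2. Other members are named for their role or for their values in single animals and were chosen after these were seen. Each gene is represented by its brightest probe set. Assembly factors and kinases caught by shared symbol stems were dropped from the lists. The members and lists were chosen with earlier results of these data known. Alternatives covered scaling, floor, filter, arrays, moderation, replicate block and each replicate left out. Figures used matplotlib 3.10.9 under python 3.11.15.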

Additional observations from a re-analysis of the deposited data

Results flagged for a closer look

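The 12 genes per direction with the smallest p were searched for a sample far from the others of its group. The search covered the 1 and 10 mg/kg animals of experiment C, 4 per group, and the other named genes were not searched. Of the 48 groups, about 1 in 20 is expected by chance to hold such a sample. It was found in 2 groups, both of the 10 mg/kg animals of experiment C, which enter the comparison through the spread. Myo1c read 8.80 in animal 1 and 8.19 to 8.29 in the other 3 animals. Tspan5 read 11.28 in animal 2 and 11.65 to 11.70 in the other 3. Groups of 3, including both groups compared, are too small for this search.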

How the results depend on the processing

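No probe set passed the test for 5 mg/kg against vehicle under any of 20 alternatives, nor against the mean of 1 and 10 mg/kg under 7. The count at an unadjusted p under 0.05 for 5 mg/kg against vehicle was 721 with a mean per experiment and dose over all arrays, 278 with experiment as an additive term, 1303 with array weights, 264 without the first repeats and 251 to 591 with each replicate left out (251 without vehicle animal 1). Against 1 and 10 mg/kg it was 292 with no filter, over 15866 probe sets rather than 11106. It was 84 to 395 with each dosed replicate left out (395 without animal 1). The experiments differed in 3 of the 15866 probe sets with no filter, among them Peli1 and Ntf4. With the additive term over all 39 arrays, which adds experiments A and B, list medians were 0.061 for cortical neuron markers, 0.062 for striatal markers, -0.015 for synaptic genes, 0.0052 for ribosomal proteins, -0.039 for myelin markers and -0.12 for hypothalamic markers, and Fgf9 (-0.067), Grm2 (-0.15), Pcp4 (0.050) and Bche (-0.046) took the other sign. Leaving out each replicate moved the hypothalamic median between -0.48 and -0.039 and the synaptic median between 0.038 and 0.23. Bche was -0.011 with the replicate block and between -0.085 and 0.12 with each replicate left out. The replicate numbers only name animals. Same-numbered animals deviated together at r = 0.02 and 0.09, and with the number as a block 541 probe sets reached an unadjusted p under 0.05, with 0 after adjustment, and 142 against 1 and 10 mg/kg. Leaving out 1 animal also moved the differences of Kcnj9 (0.27 without vehicle animal 3), Stx1a (0.35) and Grm2 (0.45) without dosed animal 1, Dnm1 (0.13) and Rasd1 (0.30) without vehicle animal 1, Map4 (-0.33) and Nrp1 (0.27) without vehicle animal 3, and Emd (-0.26) and Arc (-0.18) without dosed animal 3. Of 1243 values of named genes under alternatives, 7 changed sign. Without 1 mg/kg animal 1, whose beta-actin ratio was 4.72 (an alternative chosen after seeing the data), no call was made. The count at an unadjusted p under 0.05 was then 575 for 5 mg/kg against vehicle and 136 against 1 and 10 mg/kg. The limits are 3 animals a group, 1 dosed array left out, no detection calls and intensities with no stated summarisation.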
